A study of Mus musculus with 4 samples.

Results

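Semaphorins, plexins and neuropilins were examined as 1 family of guidance genes in NR2F1 single-cell CUT&Tag data from the embryonic mouse hindbrain. The family was taken as a list of 31 genes by name: 7 class 3 semaphorins, 13 semaphorins of classes 4 to 7, 9 plexins and the neuropilins Nrp1 and Nrp2. A region belonged to a gene when its midpoint lay in the gene body or within 5 kb upstream of a transcription start site (TSS). By this rule 710 of 263639 regions with a called peak in at least 1 library were assigned to the family. Of these, 119 were among the 35770 regions that could be compared between genotypes, because all 4 libraries had a peak there.

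CUT&Tag directs a transposase to an antibody, here against NR2F1 (COUP-TFI), and the cut sites are counted as the signal near that protein. There were 4 libraries of E10.5 cells, labelled as motor neurons of rhombomere 4 (r4). These were 2 WT (pools of 26 and 26 embryos) and 2 Fam5snv/snv (pools of 8 and 16 embryos). Fam5snv/snv mice are homozygous for a single-nucleotide change knocked into a regulatory element of Gata2. All embryos of both genotypes carried the Isl1MN-GFP reporter, which marks motor neurons, and GFP-positive cells were sorted from the r4 hindbrain. The authors' general sorting method lets in GFP-negative cells at the end of a sort. Their main text does not say whether this held for these libraries, so other cells of the tissue can be among the barcodes.

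The WT libraries held 3083946 and 3580517 cut sites from 2572 and 1377 barcodes, and the Fam5snv/snv libraries 8967987 and 10341894 cut sites from 2274 and 2740 barcodes. WT replicate 1 stood apart: its peaks covered 31.0 Mb of the genome, against 93.1 to 143 Mb in the other libraries, and 99.5% of its cut sites lay in the compared regions, against 74.1% to 79.9%. Pairs of libraries shared 3 to 12 barcodes. NR2F1 signal is not expression, so the cell type could not be checked by marker levels. Promoters of all 6 motor neuron marker genes held a compared region (mean WT signal 27.0 to 179 CPM), as did those of 2 of 4 blood genes (22.8 to 25.5 CPM), 2 of 4 endothelial genes (22.8 to 59.3 CPM), 2 of 3 neural crest genes (14.4 to 28.3 CPM) and 2 of 3 mesenchyme genes (15.6 to 16.2 CPM). Since each library is a pool of embryos, p-values below measure the spread between 2 pools per genotype.

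Semaphorins are secreted or membrane-bound guidance cues that steer axons, migrating neurons, neural crest cells and endothelium. Plexins are their signalling receptors and act on small GTPases through an intracellular GAP domain, while neuropilins lack such a domain and serve as the ligand-binding partner of A-type plexins for most class 3 semaphorins. In the hindbrain, Nrp1 is known to receive Sema3A at facial motor axons and a VEGF isoform at the migrating cell bodies of facial branchiomotor neurons. NR2F1 is an orphan nuclear receptor that binds direct repeats of the hexamer AGGTCA, often 1 base apart.

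Direct repeats of AGGTCA 1 base apart were searched on both strands across the 119 regions, and 17 sites with at most 1 mismatch lay in 16 regions of 14 genes. Of these sites, 12 were intronic, 3 upstream of the gene, 1 in an untranslated part of an exon and 1 in another exon. The 3 sites without a mismatch are shown first because they are the strongest matches in the family. They lay in an intron of Sema3f (minus strand, position -4812 from its nearest TSS), in the promoter region of Sema4b (plus strand, position -1147 from a TSS), and in an exon of Sema6c (minus strand, 128 bases past a TSS). The sites of Plxnb1, Plxna4, Plxna1 and Nrp1 are shown because these receptors have results of their own below. Sequences are those of the RefSeq GRCm38 (mm10) genome, 5′ to 3′ on the strand of the repeat, with the 13-base repeat in capitals.
Sema3f intron, chr9:107697485-107697545: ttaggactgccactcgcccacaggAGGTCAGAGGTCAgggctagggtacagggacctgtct
Sema4b promoter region, chr7:80197264-80197324: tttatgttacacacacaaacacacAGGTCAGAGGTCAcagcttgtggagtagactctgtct
Sema6c promoter region, chr3:95164472-95164532: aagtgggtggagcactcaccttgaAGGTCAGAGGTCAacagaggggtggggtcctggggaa
Plxnb1 promoter region, chr9:109092950-109093010 (minus strand): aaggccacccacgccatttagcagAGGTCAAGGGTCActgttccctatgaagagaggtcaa
Plxna4 upstream region, chr6:32592076-32592136 (minus strand): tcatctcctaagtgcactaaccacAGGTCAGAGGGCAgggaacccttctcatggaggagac
Plxna1 intron, chr6:89337901-89337961 (minus strand): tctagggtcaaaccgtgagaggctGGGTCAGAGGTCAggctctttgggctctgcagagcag
Nrp1 intron, chr8:128490091-128490151 (minus strand): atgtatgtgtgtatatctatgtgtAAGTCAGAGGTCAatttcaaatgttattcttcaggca

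At the centres of the family's regions such matches had a lower share than over all compared regions, a difference that was not tested. In 500 bases around the midpoint, a direct repeat with at most 2 mismatches was present in 8 of 119 regions (6.72%), against 11.4% of all 35770 compared regions. With at most 1 mismatch it was present in 1 region (0.84%), against 3.0%, and without a mismatch in 0 regions, against 0.59%. The single hexamer AGGTCA on either strand was present in 35 regions (29.4%), against 33.8%. These are letter matches in a window and do not mark a bound site.

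A compared region was present in 30 of 31 member genes (96.8%), against 65.0% of all protein-coding genes, which are shorter, and a compared promoter region (overlapping 1 kb on either side of a TSS) in 27 members. The median member gene was 40.2 kb long with 16 called and 3 compared regions, against 17.4 kb, 4 and 1 for all 21866 protein-coding genes. Of the 119 regions, 32 were promoter, 78 intronic, 4 exonic and 5 upstream. Across the 710 assigned regions, peaks had been called in 122 and 386 in WT replicates 1 and 2 and in 378 and 494 in the Fam5snv/snv replicates. Of the 122 regions of WT replicate 1, 119 had a peak in every library. That library therefore set which regions could be compared.

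Plxnb3, a B-type plexin, was the member without a compared region. Its 5 called regions held 0 cut sites in both WT libraries, 3 in Fam5snv/snv replicate 1 and 44 in replicate 2. Sema3a, Sema3e and Sema4a had compared regions in the gene but none at a promoter.

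Promoter signal is given as cut sites per 1000000 cut sites in compared regions (CPM, after TMM scaling between libraries). Over all 32 member promoter regions, the median of the mean WT signal was 52.2 CPM, against 30.0 CPM for all 12605 compared promoter regions. The member regions were also wider, with a median of 5154.5 bases against 2222. Per kb of region, the order was the other way round, with a median of 8.90 CPM per kb for the family and 13.1 CPM per kb for all promoter regions. No member promoter region overlapped 1 kb around a TSS of another protein-coding gene. Differences between genotypes below are relative to the bulk of the compared regions, whose median log2 fold change was 0.02. When libraries were scaled by their barcodes instead, that median was 0.97. Of the regions given below, the 18 with a negative difference that were checked this way had a positive one. The Sema3e intronic region was not among those checked.

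**Figure D1:**
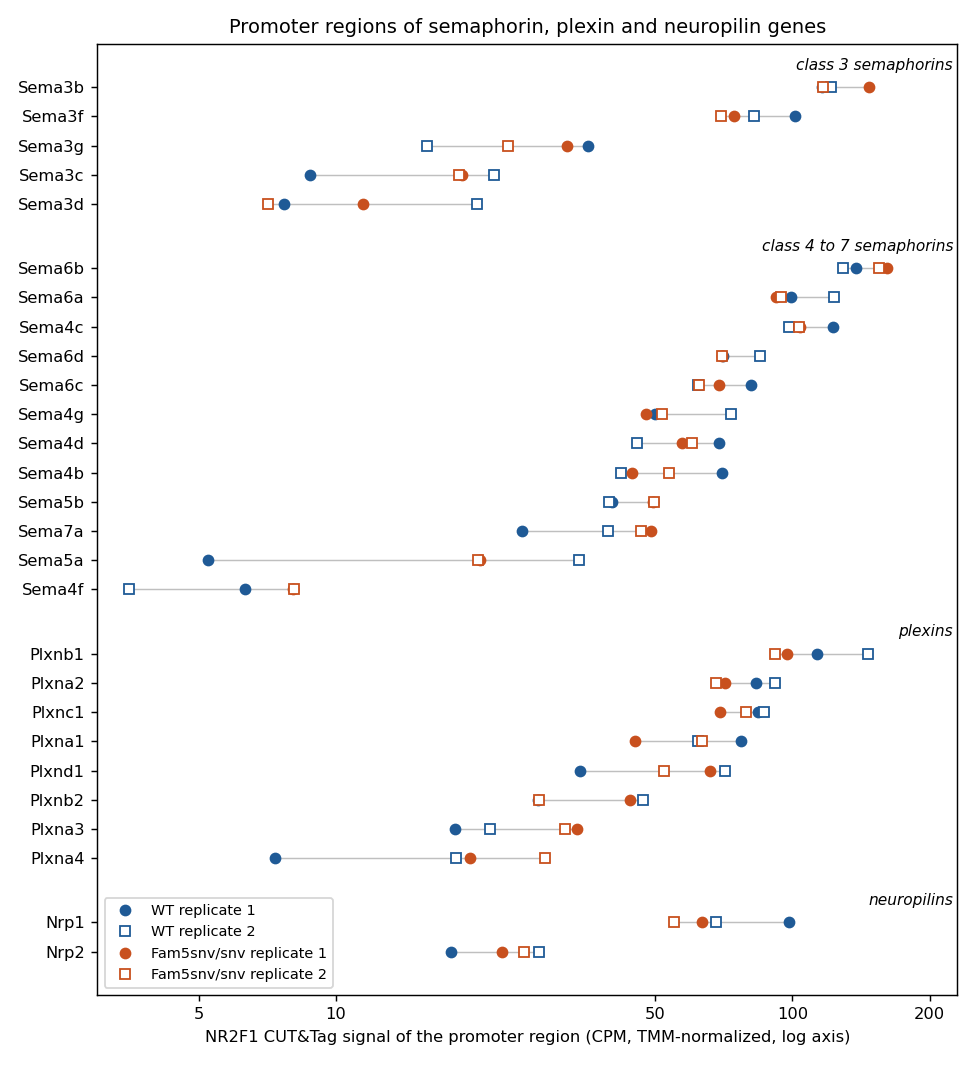
NR2F1 signal in CPM (log axis) at the promoter region of highest WT signal of each of the 27 genes that have one, grouped by class and ordered by mean WT signal. Each point is 1 library, filled circles are replicate 1 and open squares replicate 2, WT in blue and Fam5snv/snv in orange, and grey lines join the lowest and highest library. Points that coincide hide each other. The genes spread from 3.52 CPM (Sema4f, WT replicate 2) to 161 CPM (Sema6b, Fam5snv/snv replicate 1), and at low signal the WT replicates lie far apart.

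Among the secreted class 3 semaphorins, Sema3b and Sema3f had the most promoter signal. The Sema3b region, chr9:107604405-107616617, held 116 and 122 CPM in WT replicates 1 and 2 and 148 and 116 CPM in Fam5snv/snv replicates 1 and 2. The libraries of the genotypes overlapped, since Fam5snv/snv replicate 2 was no higher than WT (log2 fold change, Fam5snv/snv minus WT, 0.15 ± 0.22 SE, edgeR quasi-likelihood adjusted p = 0.844). This region reaches into the neighbouring gene Gnai2. Sema3f, a ligand that acts mainly through Nrp2, had 101 and 82.3 CPM in WT against 74.5 and 69.9 CPM in Fam5snv/snv, in chr9:107706303-107711789. Both Fam5snv/snv libraries were below both WT libraries, but the difference of -0.35 ± 0.21 did not pass the test (adjusted p = 0.628). Sema3g had 35.7 and 15.8 CPM in WT against 32.1 and 23.8 CPM in Fam5snv/snv, so the WT replicates enclosed the mutant ones. Its region overlaps the neighbouring gene Nisch. Sema3c and Sema3d had mean WT promoter signals of 15.5 ± 9.47 and 14.1 ± 8.97 CPM (SD, n = 2). Sema3e, with 1 compared region in an intron, had 20.0 and 9.85 CPM in WT against 13.0 and 14.7 CPM in Fam5snv/snv there.

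Sema3a, the cue for facial motor axons that signals through Nrp1, had 2 compared regions, both intronic. The one at chr5:13197538-13198773 held 9.81 and 5.28 CPM in WT against 17.5 and 15.9 CPM in Fam5snv/snv. Both mutant libraries were above both WT libraries, with a log2 fold change of 1.15 ± 0.46 that did not pass after adjustment (unadjusted p = 0.0407, adjusted p = 0.573). The called peaks there were 460 and 435 bases long in WT and 1127 and 1200 bases in Fam5snv/snv. Per kb of called peak the difference was -0.22, where the median of all regions was -0.757. The other Sema3a region held 14.7 and 17.6 CPM in WT against 15.9 and 22.0 CPM in Fam5snv/snv, and the genotypes overlapped.

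The intronic region of highest WT signal among the class 3 genes was that of Sema3f at chr9:107694747-107702162, which holds the perfect repeat printed above. It held 59.2 and 83.0 CPM in WT against 63.8 and 69.4 CPM in Fam5snv/snv. The mutant values lay between the WT replicates (log2 fold change -0.09 ± 0.23, 95% interval -0.64 to 0.45).

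Among the membrane-bound semaphorins of classes 4 to 7, Sema6b, Sema6a and Sema4c had the most promoter signal. Sema6b, a ligand of A-type plexins, had the highest promoter value of the family, with 138 and 129 CPM in WT against 161 and 155 CPM in Fam5snv/snv, over a region of 18515 bases. Both mutant libraries were higher, by a log2 fold change of 0.24 ± 0.20 (adjusted p = 0.714). Per kb its mean WT signal was 7.21 CPM, below the median of the family. Sema6a, another transmembrane ligand of A-type plexins, had 99.5 and 123 CPM in WT against 92.1 and 94.2 CPM in Fam5snv/snv (-0.26 ± 0.21, adjusted p = 0.705). Sema4c, a ligand of Plxnb2, had 123 and 98.1 CPM in WT and 104 CPM in both mutant libraries (-0.09 ± 0.21).

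The Sema4b promoter region that holds a perfect repeat, chr7:80197100-80200888, had 45.5 and 58.0 CPM in WT against 35.8 and 42.1 CPM in Fam5snv/snv. Both mutant libraries were below both WT libraries (-0.41 ± 0.23, adjusted p = 0.613). The Sema6c promoter region with the third perfect repeat had 81.3 and 62.3 CPM in WT against 68.9 and 62.6 CPM in Fam5snv/snv, with overlapping genotypes (-0.13 ± 0.22). The 3 regions with a perfect repeat thus had differences of -0.09, -0.41 and -0.13, each with an interval that includes 0.

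The promoter regions of Sema6d, Sema6c, Sema4g, Sema4d, Sema4b and Sema5b with the most signal had mean WT values of 40.0 to 77.6 CPM. At the other end of this class, Sema4f had 6.31 and 3.52 CPM in WT against 8.07 and 8.09 CPM in Fam5snv/snv. Sema5a had 5.25 and 34.1 CPM in WT replicates 1 and 2 and 20.6 and 20.5 CPM in Fam5snv/snv. Its WT replicates lay on either side of both mutant libraries. Sema7a, the lipid-anchored ligand of Plxnc1, had 25.6 and 39.4 CPM in WT against 48.9 and 46.5 CPM in Fam5snv/snv (0.56 ± 0.26, adjusted p = 0.589).

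The highest intronic region of this class lay in Sema6a and held 78.5 and 52.1 CPM in WT against 78.3 and 71.8 CPM in Fam5snv/snv, with overlapping genotypes. Sites with 1 mismatch lay in further regions of this class. The Sema4g promoter region had 50.1 and 73.5 CPM in WT against 47.7 and 51.8 CPM in Fam5snv/snv. An intronic region of Sema4b held 12.3 and 19.7 CPM in WT against 10.8 and 12.5 CPM in Fam5snv/snv, one of Sema5a 2.10 and 8.09 against 6.15 and 7.97 CPM, and one of Sema6a 4.90 and 5.28 against 6.84 and 11.9 CPM. Of these only the Sema6a region had non-overlapping genotypes, with the mutant libraries higher (0.88 ± 0.59, adjusted p = 0.651).

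Among the plexins, promoter signal was highest at Plxnb1, Plxna2 and Plxnc1. Plxnb1, the receptor of Sema4d, had 113 and 147 CPM in WT against 97.2 and 91.4 CPM in Fam5snv/snv, in chr9:109090947-109099479. Both mutant libraries were below both WT libraries, by -0.46 ± 0.22 (95% interval -0.98 to 0.06, unadjusted p = 0.0737, adjusted p = 0.589). The size rests on the WT libraries, being -0.64 without WT replicate 1 and -0.26 without WT replicate 2. Without either mutant library it was -0.51 and -0.42. Part of this region lies in the neighbouring gene Ccdc51. Plxna2, a receptor of Sema6a, had 83.4 and 91.4 CPM in WT against 71.1 and 67.9 CPM in Fam5snv/snv (-0.33 ± 0.19, adjusted p = 0.623). Plxnc1, the receptor of Sema7a, had 84.1 and 86.9 CPM in WT against 69.3 and 79.0 CPM in Fam5snv/snv (-0.20 ± 0.20, adjusted p = 0.75). In these 3 promoters the mutant libraries were the lower ones in every case, as at 37.8% of all 12605 compared promoter regions. Over all 10 plexin promoter regions this held for 3 (30%). The median log2 fold change of all compared promoter regions was -0.21. The other promoter regions of plexins had mean WT signals from 12.8 CPM (Plxna4) to 69.7 CPM (Plxna1).

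Plxna3 went the other way. This A-type plexin, a neuropilin partner on the X chromosome, had 18.2 and 21.8 CPM at its promoter in WT and 33.8 and 31.7 CPM in Fam5snv/snv. It was the 1 member promoter with an unadjusted p under 0.05 (0.71 ± 0.26, unadjusted p = 0.0293, adjusted p = 0.573). Its called peaks were 794 and 1422 bases long in WT and 2816 and 2815 bases in Fam5snv/snv, and per kb of called peak the difference was -0.71, close to the median of -0.757 over all regions on that scale.

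Plxna1 regions with a repeat of 1 mismatch lay in its introns. The region of the printed site held 14.0 and 20.4 CPM in WT against 11.9 and 20.4 CPM in Fam5snv/snv, and the adjoining one 26.6 and 18.3 against 14.5 and 22.3 CPM. The genotypes overlapped in both. A Plxnd1 region of the same kind held 22.1 and 20.0 CPM in WT against 18.3 and 21.9 CPM in Fam5snv/snv, again overlapping. Plxnd1 is the receptor that Sema3e binds without a neuropilin.

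Per kb of region, whose width the peaks of all libraries set, Nrp1 had the highest promoter signal of the family. Its mean WT value was 18.6 CPM per kb, followed by Sema4c, Sema3f and Sema6a with 16.8, 16.7 and 16.6 CPM per kb. Per kb of called peak it was not the highest. On that scale Nrp1 had 30.2 and 15.9 CPM in WT, Sema4c 45.2 and 16.1, Sema3f 30.6 and 17.3, and Sema6a 26.4 and 22.7. The differences among these 4 are within the spread of the WT replicates. The Nrp1 promoter region, chr8:128356010-128360481, held 98.1 and 67.9 CPM in WT against 63.4 and 55.0 CPM in Fam5snv/snv. Both mutant libraries were below both WT libraries, but the means, 83.0 ± 21.4 and 59.2 ± 5.96 CPM (SD, n = 2), differed by about the spread of the WT replicates. The log2 fold change was -0.49 ± 0.24 (95% interval -1.06 to 0.08, unadjusted p = 0.0837, adjusted p = 0.595). It was -0.73 without WT replicate 2 but -0.20 without WT replicate 1, and without either mutant library it was -0.59 and -0.38. The called length of this region was alike in the genotypes (log2 ratio 0.03), and per kb of called peak the difference was -0.53, above the median of -0.757 over all regions on that scale. The cut sites came from 125 of 2572 barcodes (4.86%) and 84 of 1377 (6.10%) in WT, and from 187 of 2274 (8.22%) and 183 of 2740 (6.68%) in Fam5snv/snv. These shares depend on the cut sites per barcode (median 879 and 1867 in WT, 2693.5 and 2984 in Fam5snv/snv) and were not compared.

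The Nrp1 intronic region with the printed repeat, 129824 bases past the TSS at its midpoint, held 5.61 and 15.5 CPM in WT against 10.8 and 20.0 CPM in Fam5snv/snv, and the genotypes overlapped. Nrp2, which prefers Sema3F as ligand, had 17.9 and 27.8 CPM at its promoter in WT and 23.1 and 25.8 CPM in Fam5snv/snv. The mutant values lay between the WT replicates (0.10 ± 0.31, adjusted p = 0.934). Its highest intronic region, chr1:62751718-62755057, held 39.2 and 25.0 CPM in WT against 40.3 and 38.6 CPM in Fam5snv/snv, and so carried more signal than its promoter in each library except WT replicate 2.

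No member region passed the adjusted threshold with edgeR. At adjusted p under 0.05, 0 of 119 member regions and 0 of all 35770 regions (0%) were called. In simulated data this test recovered 2.0% of regions changed 2-fold, so a region that did not pass can still differ by that much. At an unadjusted p under 0.05, 10 member regions (8.4%) were higher in Fam5snv/snv, against 5.29% of all regions, and 1 (0.84%) was lower, against 3.37%. DESeq2 called 2 member regions higher (1.68%), against 1.02% of all regions, and 0 lower, against 0.542%. The smallest adjusted p of edgeR among the members was 0.573. These counts rest on single libraries. Without Fam5snv/snv replicate 2 or replicate 1, 1 and 4 member regions (0.84% and 3.36%) were higher at an unadjusted p under 0.05, against 0.867% and 1.05% of all regions. Without WT replicate 1 or 2 it was 21 and 30 (17.6% and 25.2%), against 13.1% and 18.7% of all regions. After adjustment, 11 and 21 member regions (9.24% and 17.6%) were then higher, against 4.17% and 11.4% of all regions, and 0 without either mutant library. Fits without 1 library leave a genotype with a lone library, which is assumed to vary like the others.

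The regions of smallest p in the higher direction lay away from promoters. An intronic region of Plxnc1, chr10:94920802-94923508, held 8.76 and 3.17 CPM in WT against 24.1 and 25.3 CPM in Fam5snv/snv (2.04 ± 0.50, 95% interval 0.86 to 3.23, unadjusted p = 0.00462). It was called by DESeq2 (adjusted p = 0.0144) and not by edgeR. A second Plxnc1 intronic region, chr10:94852841-94854821, held 5.61 and 1.41 CPM in WT against 15.9 and 14.7 CPM in Fam5snv/snv (2.11 ± 0.66). In both, the mutant libraries were close to each other and above both WT libraries, and both passed edgeR's adjusted threshold when either WT library was left out (log2 fold changes 1.49 to 2.95 for the first and 1.44 to 3.41 for the second), in fits that called 4.17% and 11.4% of all regions higher. Without either mutant library neither passed (edgeR adjusted p of 0.999 and 1.0).

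An intronic region of Plxna2 at chr1:194636999-194640913 held 2.45 and 6.33 CPM in WT against 12.0 and 23.5 CPM in Fam5snv/snv (2.01 ± 0.61). In Sema5b, whose protein carries thrombospondin repeats, an intronic region had 0 and 5 cut sites in WT and 59 and 172 in Fam5snv/snv, or 0 and 1.76 against 8.07 and 21.7 CPM. DESeq2 called it (adjusted p = 0.018). An exonic region of Sema6b had 0 and 3 cut sites in WT and 37 and 61 in Fam5snv/snv. For these regions of Sema5b and Sema6b the fitted values of 4.05 and 3.54 rest on so few WT cut sites that they depend on the prior count. Both regions met the filter on counts, 10 cut sites in 2 libraries or more, through the Fam5snv/snv libraries alone. They were thus let into the comparison by the libraries in which they were high. The DESeq2 call of the Sema5b region carries the same limit.

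In these regions the called peaks of WT were short. For the first Plxnc1 region they were 401 and 371 bases long in WT and 2161 and 2707 bases in Fam5snv/snv, and the signal per kb of called peak was 21.8 and 8.53 CPM in WT against 11.1 and 9.34 CPM in Fam5snv/snv. For the Plxna2 region they were 172 and 1118 bases in WT and 1473 and 3852 bases in Fam5snv/snv, with 14.3 and 5.66 against 8.17 and 6.11 CPM per kb. Per kb, the mutant values thus lay between the WT replicates. With the called length as an offset the 5 differences became -0.58 and -0.31 (Plxnc1), -0.18 (Plxna2), 0.20 (Sema5b) and -0.37 (Sema6b), where the median of all regions was -0.757.

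In the lower direction, an exonic region of Sema4a at chr3:88435695-88437875 had the smallest p. It held 43.8 and 34.1 CPM in WT against 24.9 and 21.9 CPM in Fam5snv/snv (-0.74 ± 0.25, 95% interval -1.33 to -0.14, unadjusted p = 0.0225, adjusted p = 0.573). Both mutant libraries were below both WT libraries, and the called length was 888 and 1825 bases in WT and 1951 and 1490 bases in Fam5snv/snv. An intronic region of Sema6d, a ligand of Plxna1, held 35.0 and 45.0 CPM in WT against 29.4 and 26.3 CPM in Fam5snv/snv (-0.52 ± 0.24). One of Sema4b held 31.5 and 39.4 CPM in WT against 26.2 and 23.8 CPM in Fam5snv/snv (-0.50 ± 0.25). The promoters of Nrp1 and Plxnb1, given above, complete the 5 regions of smallest p in this direction.

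Across the family, promoter regions and intronic regions differed in the sign of their median. The median log2 fold change was -0.07 over the 32 promoter regions, against -0.21 over all promoter regions, and 0.38 over the 78 intronic regions, against 0.23 over all intronic regions. The libraries of the genotypes did not overlap, with Fam5snv/snv higher, in 6 promoter regions (18.8%, against 10.3% of all promoter regions) and in 33 intronic regions (42.3%, against 32% of all intronic regions). With Fam5snv/snv lower, they did not overlap in 8 promoter regions (25.0%, against 37.8%) and 3 intronic regions (3.85%, against 10.7%). The contrast of promoters and introns was thus also that of all regions, and the distance of the family from all regions of the same kind was not tested.

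**Figure D2:**
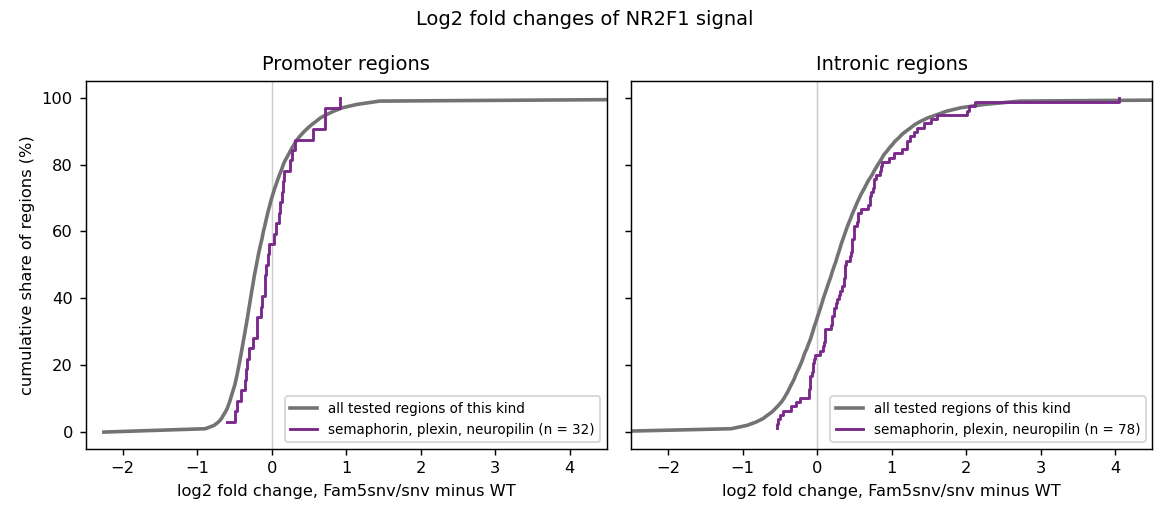
Cumulative share of regions (y axis, percent) by log2 fold change, Fam5snv/snv minus WT (x axis), for promoter regions on the left and intronic regions on the right. The purple steps are the 32 promoter and 78 intronic member regions and the grey line all compared regions of that kind. The purple steps lie to the right of the grey line over most of both panels, with medians of -0.07 against -0.21 and 0.38 against 0.23.

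The length of DNA that each library's peaks covered moved with these differences. In all 119 member regions the summed called length was longer in Fam5snv/snv than in WT (100%), as in 96.7% of all compared regions, with a median log2 ratio of 0.90 in the family and 0.70 over all regions. The compared regions were split into 4 bins of equal size by this ratio. In the bin of smallest ratios the median log2 fold change was -0.35 for 17 member regions and -0.39 for all. In the next bins it was -0.09 for 23 and -0.13 for all, then 0.12 for 35 and 0.17 for all. In the bin of largest ratios it was 0.73 for 44 member regions and 0.79 for all. Within each bin the median of the family was close to that of all regions. Per kb of called peak, 2 of 119 member regions had a log2 fold change above 0 (1.68%), against 2.93% of all regions.

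**Figure D3:**
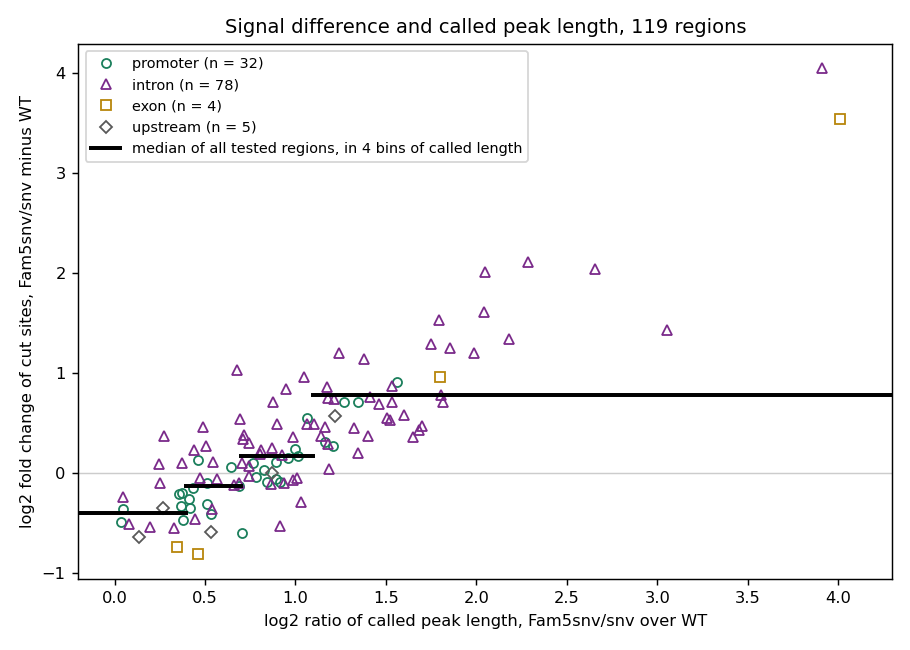
Log2 fold change of cut sites (y axis) against the log2 ratio of called peak length, Fam5snv/snv over WT (x axis), for the 119 member regions, with a symbol for each kind of region. Black bars are the medians of all compared regions in each of 4 bins of called length, and the first and last bar run on past the axis. Member medians climb from -0.35 in the first bin to 0.73 in the last, and the regions near 4 on the y axis are the Sema5b and Sema6b regions with 0 cut sites in WT replicate 1.

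Gene sums were scaled apart from the regions, per 1000000 cut sites summed over genes and with TMM factors of their own, so their CPM and differences are not on the scale of the regions. Summed over the compared regions of a gene, the plexins Plxna4, Plxnc1 and Plxna3 had the smallest p of the family. Plxna4, a receptor for Sema6 ligands and, with Nrp1, for Sema3A, had 313 and 361 CPM in WT against 516 and 540 CPM in Fam5snv/snv (0.65 ± 0.15, 95% interval 0.31 to 0.99, unadjusted p = 0.0024, adjusted p = 0.516). Plxnc1 had 145 and 121 CPM in WT against 192 and 221 CPM in Fam5snv/snv (0.63 ± 0.17, unadjusted p = 0.0057). Plxna3, with its promoter as the 1 compared region, had 19.3 and 23.9 CPM in WT against 40.1 and 38.8 CPM in Fam5snv/snv (0.87 ± 0.24, unadjusted p = 0.00732). The same cut sites gave 0.71 on the scale of the regions. Plxna4 and Plxnc1 passed after adjustment when either WT library was left out (0.55 to 0.75 and 0.51 to 0.77), and Plxna3 without WT replicate 2 (1.03), in fits that called 4.72% and 12.4% of all genes higher without WT replicate 1 and 2. Without either mutant library none of the 3 passed, and the unadjusted p of edgeR was 0.0322 and 0.0501 for Plxna4, 0.021 and 0.0763 for Plxnc1 and 0.0659 and 0.0538 for Plxna3. In each of these genes both mutant libraries were above both WT libraries.

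Of the 30 genes that could be fitted, 8 (26.7%) were higher at an unadjusted p under 0.05, against 5.89% of 14216 protein-coding genes, and 0 were lower, against 2.99%. The other 5 were Sema3a (0.75), Sema7a (0.61), Sema5b (0.52), Sema4d (0.47) and Sema6b (0.45). After adjustment over all genes, 0 members and 0 genes in all (0%) passed. The median over the family was 0.26, against -0.01 over all genes. Nrp1 had 147 and 114 CPM in WT against 120 and 125 CPM in Fam5snv/snv, with a difference of -0.09 ± 0.17. The sums were not corrected for called length or for the kind of region. Of the member regions 78 were intronic and 32 promoter, against 10374 and 12605 over all regions. Over all regions the median log2 fold change was 0.23 in introns and -0.21 at promoters. How much this mix adds to the count of 8 was not tested. Without Fam5snv/snv replicate 1 or 2 the count of 8 became 4 and 0, against 2.38% and 1.13% of all genes. Without WT replicate 1 or 2 it became 10 and 15 of 30 genes, against 11.3% and 18.6% of all genes.

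Plxna4 had 17 compared regions, the most of any member, of which 15 were intronic. The log2 fold change was above 0 in all 17 (0.08 to 1.53), against 65.8% of all intronic regions, and 1 had an unadjusted p under 0.05. The genotypes did not overlap, with Fam5snv/snv higher, in 10 of them, against 32% of all intronic regions. The 17 include 1 promoter region, which is among these 10, and 1 upstream region. Over all promoter regions, 29.9% had a log2 fold change above 0, and 10.3% did not overlap with Fam5snv/snv higher. The promoter region, chr6:32586223-32590026, held 7.36 and 18.3 CPM in WT against 19.7 and 28.7 CPM in Fam5snv/snv (0.92 ± 0.47, 95% interval -0.20 to 2.03, adjusted p = 0.599). The region upstream, with the printed repeat, held 32.2 and 13.7 CPM in WT against 32.0 and 36.4 CPM in Fam5snv/snv, so that WT replicate 1 was level with the mutant libraries there. The intronic region of highest WT signal, at chr6:32459538-32462866, held 56.8 and 47.5 CPM in WT against 56.5 and 53.5 CPM in Fam5snv/snv (0.08 ± 0.21, and -0.05 without WT replicate 2). Per kb of called peak, 0 of the 17 differences were above 0, against 2.93% of all regions.

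**Figure D4:**
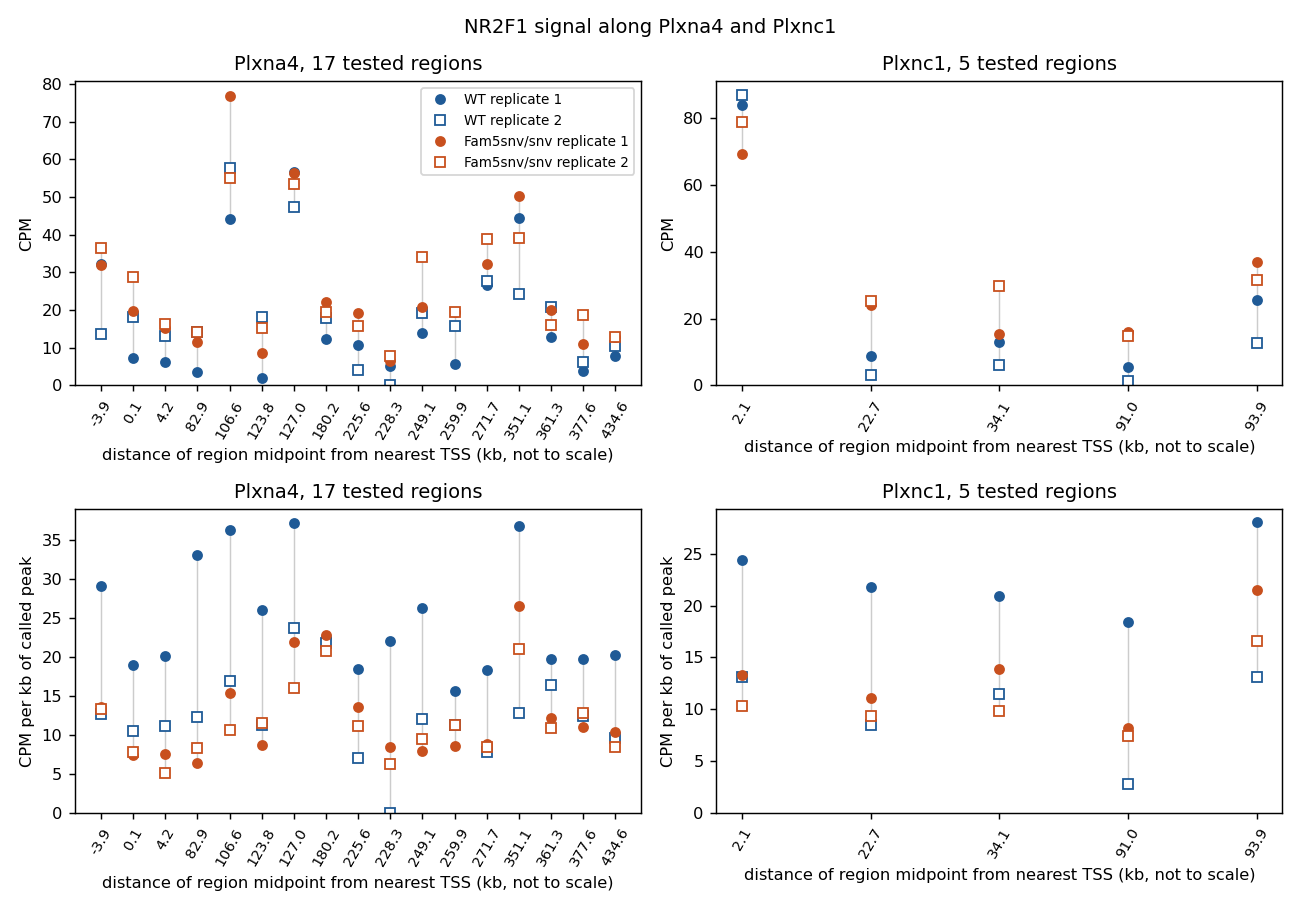
NR2F1 signal at the 17 compared regions of Plxna4 (left) and the 5 of Plxnc1 (right), ordered by distance of the region midpoint from the nearest TSS of the gene (x axis, kb, evenly spaced and not to scale). The upper panels give CPM and the lower panels CPM per kb of called peak, with WT in blue, Fam5snv/snv in orange, circles for replicate 1 and squares for replicate 2. In CPM the orange points are mostly on top, except at the Plxnc1 promoter, while per kb WT replicate 1 is mostly the highest library.

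The share of the family's cut sites that lay in promoter regions needs no scaling between libraries, but it still depends on called peak length. The median log2 ratio of called length, Fam5snv/snv over WT, was 0.73 in member promoter regions and 1.02 in member intronic regions. Over all regions of these kinds it was 0.51 and 0.87. How much this adds to the difference in share was not tested. The promoter share was 54.6% and 55.5% in WT (95% exact binomial intervals 53.6% to 55.6% and 54.5% to 56.5%). In Fam5snv/snv it was 49.8% and 48.1% (49.1% to 50.4% and 47.5% to 48.7%), where the intervals cover counting error only. The difference of -6.13 percentage points between 55.1% ± 0.651 in WT and 48.9% ± 1.16 in Fam5snv/snv (SD, n = 2) was larger than the spread between replicates, with an exact two-sided permutation p = 0.333, the smallest that 2 against 2 libraries allow. For all protein-coding genes the share was 70.8% and 70.0% in WT and 65.6% and 64.1% in Fam5snv/snv, a difference of -5.53 points. The plexins had 44.3% and 47.2% in WT and 37.1% and 36.4% in Fam5snv/snv, and the neuropilins 46.2% and 46.1% against 39.8% and 36.6%. In the class 3 semaphorins the libraries of the genotypes overlapped (64.0% and 58.2% against 61.9% and 54.9%).

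**Figure D5:**
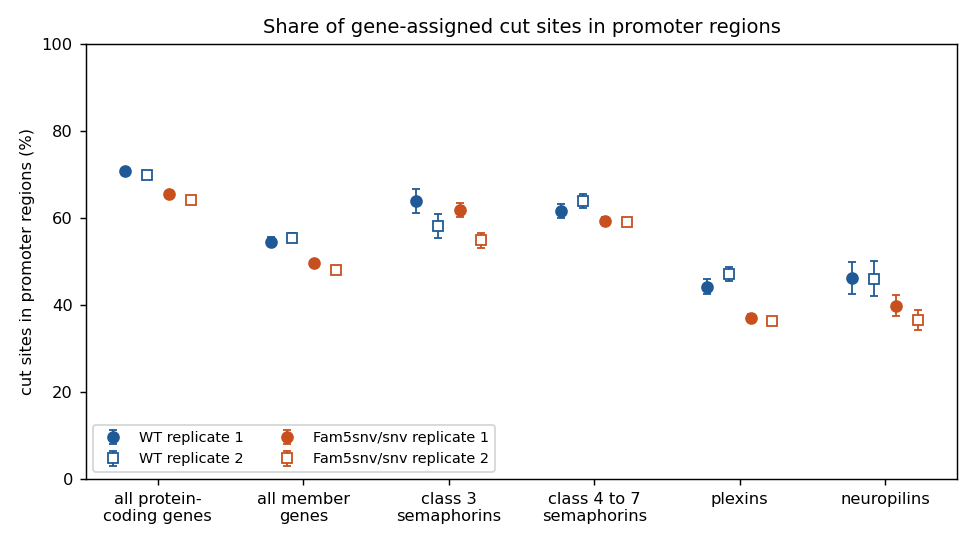
Share of gene-assigned cut sites that lay in promoter regions (y axis, percent) for all protein-coding genes, the 31 member genes and their classes. Each point is 1 library with its 95% exact binomial interval, which covers counting error only, WT in blue and Fam5snv/snv in orange. The Fam5snv/snv points sit below the WT points for the plexins (36.4% and 37.1% against 44.3% and 47.2%) and overlap with them for the class 3 semaphorins.

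Genes that act with this family gave a like picture. Of 34 genes for co-receptors and intracellular effectors (such as L1cam, Met, Fyn, Farp1, the Mical and Crmp/Dpysl genes), 32 could be fitted, and 7 were higher and 2 lower at an unadjusted p under 0.05, with a median log2 fold change of 0.16. Of 40 genes for Ephs, ephrins, Slits, Robos and netrins with their receptors, 38 could be fitted, with 8 higher, 2 lower and a median of 0.11. In the family, 8 of 30 genes were higher and 0 lower, with a median of 0.26. Over all 14216 genes, 5.89% were higher and 2.99% lower at that threshold, with a median of -0.01. None of either list passed after adjustment. Their intronic regions had medians of 0.67 (43 regions, partners) and 0.31 (153 regions, other guidance genes) beside 0.38 for the family and 0.23 over all intronic regions. Their promoter regions had medians of -0.05 (34) and -0.15 (41) beside -0.07 for the family and -0.21 over all promoter regions.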

How the data were processed

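The authors processed the reads with Cell Ranger ATAC on mm10 and deposited, for each library, the barcodes called as cells, the positions of its own peaks, and raw counts, which are whole numbers of cut sites for a barcode in a peak (software version 1.2.0 in the matrix headers). Counts exist only inside a library's own peaks, so wider peaks count more of the same DNA.

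Here counts were summed over barcodes, peaks overlapping by at least 1 bp were merged, and the 35770 regions that had a peak in all 4 libraries, and reached 10 cut sites in 2 libraries or more, were fitted together. Fam5snv/snv was compared with WT by the quasi-likelihood test of edgeR 4.0.16 (limma 3.58.1, R 4.3.3) with TMM scaling, no block and Benjamini-Hochberg adjustment over all regions or all genes. The fit had 2 residual degrees of freedom and a common biological coefficient of variation of 0.305. The script was tested on simulated data, with 50 regions or genes changed at each size. At adjusted p of edgeR under 0.05, 0% of regions at 0.5-fold and 2.0% at 2-fold were recovered. At 0.25-fold and 4-fold it was 34.0% and 46.0%. For gene sums, 42.0% at 0.5-fold and 44.0% at 2-fold were recovered, with 4 false calls. DESeq2 1.42.0 was an alternative. Cells were not clustered, and no doublet caller was run. Genes are from GENCODE M21. The median compared region held 42 and 47 cut sites in WT and 126 and 139 in Fam5snv/snv, so WT counts limit the precision.

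The member genes, the comparison lists and the rules were chosen with earlier results of these data known. Values are given for the 3 highest promoter regions and the highest intronic region of each class, the 5 regions of smallest p in each direction, promoters of Nrp1, Nrp2, Sema3a and Plxna4, and regions with a direct repeat of at most 1 mismatch. Sema3c, Sema3d, Sema3e, Sema4f, Sema5a, Sema7a and Plxna3 regions, the intronic Sema3a regions and the genes named for their summed signal were added after their values were seen.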

Additional observations from a re-analysis of the deposited data

Results flagged for a closer look

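Promoters of Sema3a, Sema3e and Sema4a held signal that no comparison above uses, because not every library had a peak there, and WT replicate 1 had 0 cut sites in each. At Sema3a, 1 region held 186 cut sites in all (33 in WT replicate 2, 50 and 103 in Fam5snv/snv) and another 10, all in Fam5snv/snv replicate 1. The Sema3e promoter region held 114 cut sites, with 19 in WT replicate 2 and 42 and 53 in Fam5snv/snv. Around the starts of Sema4a, 5 regions held 129, 53, 20, 7 and 5 cut sites over the 4 libraries. A library without a called peak has no count there, so a 0 does not show that signal was lacking.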

How the results depend on the processing

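Another size factor (RLE) or no filter on counts changed no direction and no count by more than 1.5 times. With DESeq2, 2 member regions were higher after adjustment, against 0 with edgeR, and 4 rather than 1 were lower at an unadjusted p under 0.05. Restricting to regions covered to 50% by every library's peaks left 12 member regions of 8900 tested, of which 2 were higher and 0 lower. There the Sema6a promoter turned from -0.26 to 0.02. With regions that had a peak in at least 2 libraries, 257 member regions were among the 82062 tested. Of these 257, 51 were higher at an unadjusted p under 0.05. The medians were 0.0942 (promoters) and 0.90 (introns), where all regions had moved to 0.61. Scaled by barcodes, 40 of 119 member regions were higher and 0 lower, with medians of 0.869 and 1.33 (all regions 0.97). With the called length as an offset, an alternative chosen after seeing the data, 0 of 119 were higher and 22 lower, with medians of -0.874 and -0.683 (all regions -0.757). Summing promoter regions alone, 5 genes were higher at an unadjusted p under 0.05, not 8. In these alternatives the share of all regions or genes at an unadjusted p under 0.05 was not counted. The member counts therefore stand without a share to set them against. The difference in promoter share was -10.1 points with all merged regions and -3.81 with promoters set by midpoint.

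Scaling by barcodes turned 18 of the regions given positive: Sema3f 0.79 (intron) and 0.65 (promoter), Sema4a 0.27, Sema4b 0.49, 0.40 and 0.41, Sema4c 0.90, Sema4g 0.56, Sema6a 0.65, Sema6c 0.88, Sema6d 0.38, Nrp1 0.55, Plxna1 0.72 and 0.77, Plxna2 0.60, Plxnb1 0.43, Plxnc1 0.73 and Plxnd1 0.90. The offset turned 16 negative: Sema3b -1.17, Sema3g -0.76, Sema5a -1.43, Sema6a -1.14 and -0.90, Sema6b -0.37 (exon) and -0.99 (promoter), Nrp1 -0.22, Nrp2 -0.72 and -0.88, Plxna2 -0.18, Plxna4 -0.68, -0.87 and -0.64, and Plxnc1 -0.31 and -0.58.

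Leaving out each library in turn gave 0 to 21 member regions higher and 0 to 2 lower after adjustment, and 1 to 30 higher and 0 to 11 lower unadjusted. Member genes past adjustment numbered 0 to 13, and unadjusted 0 to 15 higher and 0 to 2 lower. Promoter medians ran from -0.20 to 0.00897, intron medians from 0.316 to 0.457 and the promoter share difference from -6.95 to -5.30 points. Over all regions, 1492 were higher and 419 lower after adjustment without WT replicate 1, 4094 and 2221 without WT replicate 2, and 0 without either mutant library. Some signs turned. Without Fam5snv/snv replicate 1 this held for Sema3b (range over the left-out libraries -0.03 to 0.31) and Plxnd1 (-0.20 to 0.05), and without that library or WT replicate 2 for Sema3g (-0.36 to 0.81) and Plxna1 (-0.53 to 0.24). Without WT replicate 1 it held for Sema4c (-0.25 to 0.07), Sema5a (-0.20 to 1.74), Sema6c (-0.31 to 0.07), the Nrp1 intron (-0.01 to 1.46), the Nrp2 promoter (-0.19 to 0.45) and the adjoining Plxna1 region (-0.63 to 0.00), and without WT replicate 2 for the Sema3f intron (-0.32 to 0.17), the Sema6a intron (-0.06 to 0.52) and the Plxna4 intron (-0.05 to 0.20).

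Same-numbered libraries did not deviate together (r = 0.025 over 35770 regions). With 2 libraries per genotype this cannot show whether a number marks a shared day or batch, and the labels do not say. With the replicate number as a block, 9 member regions were higher and 1 lower at an unadjusted p under 0.05, 8 genes were higher, and 0 regions and 0 genes passed after adjustment. The share of all regions or genes past the unadjusted threshold was not counted with the block. The cause of these changes was not tested, beyond what each alternative counts.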
